A study of Mus musculus with 14 samples.

Results

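Of 54532 gene symbols in the count table, 9 genes were followed: 7 HOX genes, Hoxa5, Hoxa7, Hoxa9, Hoxa10, Hoxb3, Hoxb4 and Hoxb5, and the cofactor genes Meis1 and Pbx3. They were chosen by symbol as homeobox genes known from blood stem cells and leukaemia, and all 9 had a line and counts in the table. The study sequenced RNA of sorted mouse bone marrow cells in bulk, with 3 AML1/ETO and 4 control libraries of long-term haematopoietic stem cells (LT-HSC) and likewise of granulocyte-monocyte progenitors (GMP). AML1/ETO mice carried Runx1-Runx1t1, the labels' genotype for the t(8;21) fusion gene, switched on by Mx1-Cre, a recombinase under an interferon-responsive promoter. Control mice are given as WT. All 14 samples are given as C57BL/6 bone marrow with poly(I:C) injected at 5 mg/kg in 4 doses, controls included, and cells stood in DMEM with serum around the sort. Sort markers, sex, age, batches and the time between induction and sorting are not among the labels. Nor is it stated that each library is a mouse of its own, so every p-value reflects the spread among these libraries alone, technical or not.

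HOX genes encode homeodomain transcription factors that lie in clusters and are expressed in overlapping blocks along each cluster. In blood they are most active in stem and early progenitor cells and are shut down as cells mature, under activation by MLL complexes and repression by Polycomb complexes. Their proteins bind DNA weakly alone and more tightly with TALE homeodomain partners of the PBX and MEIS families, and Hoxa9 with Meis1 is a classic pair in mouse leukaemia. In human leukaemia, cases with t(8;21) are known for low HOXA gene expression.

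The HOXA members lie on mouse chromosome 6 of the mm10 build, all on the minus strand: Hoxa5 at chr6:52201754-52204587, Hoxa7 at chr6:52214491-52221854, Hoxa9 at chr6:52223100-52231089 and Hoxa10 at chr6:52231197-52240854. The HOXB members lie on the plus strand of chromosome 11, with Hoxb5 at chr11:96303336-96306121, Hoxb4 at chr11:96318267-96321638 and Hoxb3 at chr11:96323326-96347930. Meis1 lies far from them on the same chromosome, at chr11:18879817-19018985 on the minus strand, and Pbx3 lies at chr2:34171457-34373142 on the minus strand. By the GENCODE M21 annotation all 9 are protein coding. Other genes overlapped 52.9% of the exon bases of Hoxb3 (the antisense Hoxb3os), 20.4% of Hoxa7 (the antisense Hoxaas3), 18.3% of Meis1, 3.6% of Hoxb5 and 1.5% of Hoxa9, so values of Hoxb3, Hoxa7 and Meis1 may hold or lack reads of a neighbour.

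The promoters of the 2 members that passed the test in LT-HSC, Hoxa9 and Hoxa5, and of Meis1, which did not, are shown because the fusion keeps the DNA-binding part of RUNX1. Each sequence is the 250 bases before the RefSeq start on the gene's own strand (GRCm38.p6, the assembly behind mm10), at chr6:52227371-52227620, chr6:52204588-52204837 and chr11:19018970-19019219, all on the minus strand. Capitals mark a match to TGTGGT or TGCGGT (RUNX), TGATTNAT (HOX with PBX) or TGACAG (MEIS) on either strand.
Hoxa9: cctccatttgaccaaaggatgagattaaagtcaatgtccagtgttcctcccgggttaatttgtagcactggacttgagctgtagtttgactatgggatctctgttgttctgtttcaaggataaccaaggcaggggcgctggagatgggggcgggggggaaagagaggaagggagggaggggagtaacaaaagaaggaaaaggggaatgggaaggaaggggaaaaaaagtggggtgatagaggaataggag
Hoxa5: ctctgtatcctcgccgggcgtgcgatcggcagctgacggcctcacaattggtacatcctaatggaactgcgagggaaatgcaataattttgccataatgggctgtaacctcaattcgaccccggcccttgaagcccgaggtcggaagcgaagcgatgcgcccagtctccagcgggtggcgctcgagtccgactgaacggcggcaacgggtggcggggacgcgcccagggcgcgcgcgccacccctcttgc
Meis1: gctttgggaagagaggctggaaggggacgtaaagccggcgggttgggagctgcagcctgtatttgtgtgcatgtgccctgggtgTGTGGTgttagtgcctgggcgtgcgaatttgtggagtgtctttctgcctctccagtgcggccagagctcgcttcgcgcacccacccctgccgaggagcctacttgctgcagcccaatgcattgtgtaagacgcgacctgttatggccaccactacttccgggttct
The RefSeq table held 7 promoters of 6 members, with Hoxb3, Hoxb5 and Pbx3 not among them. The single match in these 7 windows was TGTGGT in Meis1, with its first base at position -166 from the start. Of 32851 promoters of the same length, 14% held TGTGGT, 5.1% TGCGGT, 18.6% either of them, 2.8% TGATTNAT and 15.9% TGACAG. A match describes letters only, and these windows do not cover enhancers.

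The libraries held 13210952 to 19403864 counts. Levels are given in CPM, the usual unit of counts per library total (edgeR's cpm), after scaling by the trimmed mean of M-values (TMM). Runx1t1, the fusion's other partner, stood at 85.5 to 163.6 CPM in AML1/ETO LT-HSC against 0 to 18.1 CPM in control LT-HSC, and at 26.0 to 45.7 CPM in AML1/ETO GMP against 1.69 to 2.73 CPM in control GMP, with no overlap in either cell type. Of 7782 well expressed genes (median CPM of 20 or more over the libraries), 109 had no count in control LT-HSC replicate 3, against 1 to 29 in the other 13 libraries. The summed level of the 9 GMP markers (Mpo, Elane and others) was 21280 to 35370 CPM in the 7 GMP libraries and 90.9 to 1442 CPM in the 7 LT-HSC libraries, and all 9 other LT-HSC markers (Procr, Hlf, Slamf1 and others, without Hoxb5) had counts in every group. AML1/ETO GMP replicate 3 stood above replicates 1 and 2 for Hoxa5, Hoxa7, Hoxa9 and Meis1, and control LT-HSC replicate 3 had no count of Hoxa10, Hoxb3 or Pbx3. Between each pair of groups compared, the log2 fold changes of these members are given with and without those libraries.

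AML1/ETO LT-HSC were first compared with control LT-HSC, to see how HOX levels in stem cells differ with the fusion. Hoxa9 and Hoxa5 were lower, Hoxa7 and Hoxa10 had negative estimates that did not pass the test, and Meis1 levels overlapped between the groups. Of the 9 members, 2 were called lower and 0 higher at an adjusted p under 0.05 by edgeR's quasi-likelihood test, where 12.3% of the 14589 genes tested were called, 7.59% higher and 4.69% lower. The median log2 fold change over the 9 members was -1.21, and over all genes tested 0.03. In bulk RNA, fewer cells of a type and less RNA per cell cannot be told apart.

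Hoxa9, which mouse stem cells need for full repopulating activity and which drives myeloid leukaemia when overexpressed, had 12.1, 4.84 and 11.4 CPM in AML1/ETO LT-HSC, against 128.8, 103.9, 33.96 and 35.02 CPM in control LT-HSC. Every AML1/ETO library lay below every control library, although control replicates 1 and 2 stood well above replicates 3 and 4. The log2 fold change was -2.90 ± 0.62 (SE, edgeR adjusted p = 0.0209). The call was kept without any 1 control library (adjusted p = 0.0104 to 0.0464) and lost without any 1 AML1/ETO library, at 0.0797 without replicate 1, 0.112 without replicate 2 and 0.0798 without replicate 3, while the log2 fold change stayed between -3.15 and -2.50.

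Hoxa5, a HOXA gene known to limit erythroid in favour of myeloid fate in human progenitors, had 7.17, 3.99 and 6.11 CPM in AML1/ETO LT-HSC, against 53.2, 53.3, 20.7 and 11.1 CPM in control LT-HSC. Again the groups did not overlap. Its log2 fold change was -2.49 ± 0.63 (edgeR adjusted p = 0.0396), a call lost without any 1 AML1/ETO library (edgeR adjusted p = 0.110 without replicate 1, 0.166 without replicate 2 and 0.125 without replicate 3), without control replicate 1 (0.0720) and without control replicate 2 (0.0831), and in a fit of all 14 samples (0.113).

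Hoxa7, a target of MLL fusions, had 22.5, 6.76 and 15.5 CPM in AML1/ETO LT-HSC, against 66.2, 42.8, 23.8 and 15.2 CPM in control LT-HSC. The groups overlapped, since control replicate 4 lay below AML1/ETO replicates 1 and 3, and the log2 fold change of -1.21 ± 0.60 did not pass (edgeR adjusted p = 0.257). Hoxa10, whose overexpression in mice blocks lymphoid and late myeloid steps, had 1.37, 0 and 1.47 CPM in AML1/ETO LT-HSC, against 44.2, 22.8, 0 and 17.9 CPM in control LT-HSC. All control values but the 0 of replicate 3 were above the AML1/ETO values. The log2 fold change was -4.38 ± 1.90 (edgeR adjusted p = 0.186), and without control replicate 3 it was -4.78 and passed (adjusted p = 0.0203).

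In the HOXB cluster no member passed the test. Hoxb5, which in mice marks LT-HSC among other stem and progenitor cells, had 0, 0.230 and 1.53 CPM in AML1/ETO LT-HSC, against 4.38, 16.8, 4.85 and 22.0 CPM in control LT-HSC. The groups did not overlap, but the log2 fold change of -4.25 ± 1.53 missed the threshold (edgeR adjusted p = 0.112), also without any 1 library (0.0626 to 0.364). The AML1/ETO values rest on 0, 3 and 25 counts.

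Hoxb4, whose overexpression expands mouse stem cells, had 8.78, 11.8 and 17.8 CPM in AML1/ETO LT-HSC, against 25.7, 16.9, 17.96 and 16.9 CPM in control LT-HSC. Those ranges met at AML1/ETO replicate 3, and the log2 fold change was -0.51 ± 0.43 (edgeR adjusted p = 0.551). Hoxb3, a neighbouring gene active in early blood cells, had 4.78, 2.00 and 3.30 CPM in AML1/ETO LT-HSC, against 8.23, 5.25, 0 and 10.9 CPM in control LT-HSC, with a log2 fold change of -0.77 ± 1.48 (edgeR adjusted p = 0.836), and -1.18 without control replicate 3 (adjusted p = 0.304). Together, 3 of 9 members (Hoxa5, Hoxa9 and Hoxb5) were lower without overlap, against 13% of all genes tested.

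Of the cofactors, Meis1, which stem cells and megakaryocytes need, had 266.3, 149.96 and 246.5 CPM in AML1/ETO LT-HSC, against 296.7, 177.5, 161.2 and 156.4 CPM in control LT-HSC. The groups overlapped widely, and the log2 fold change was 0.25 ± 0.30 (edgeR adjusted p = 0.704). Pbx3, a partner of HOXA9 in MLL-rearranged leukaemia, had 3.52, 5.76 and 6.73 CPM in AML1/ETO LT-HSC, against 10.7, 22.8, 0 and 15.5 CPM in control LT-HSC. Apart from the control library at 0, all control values were higher. Its log2 fold change was -1.10 ± 1.39 (edgeR adjusted p = 0.718), and -1.52 without control replicate 3 (adjusted p = 0.0725).

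**Figure D1:**
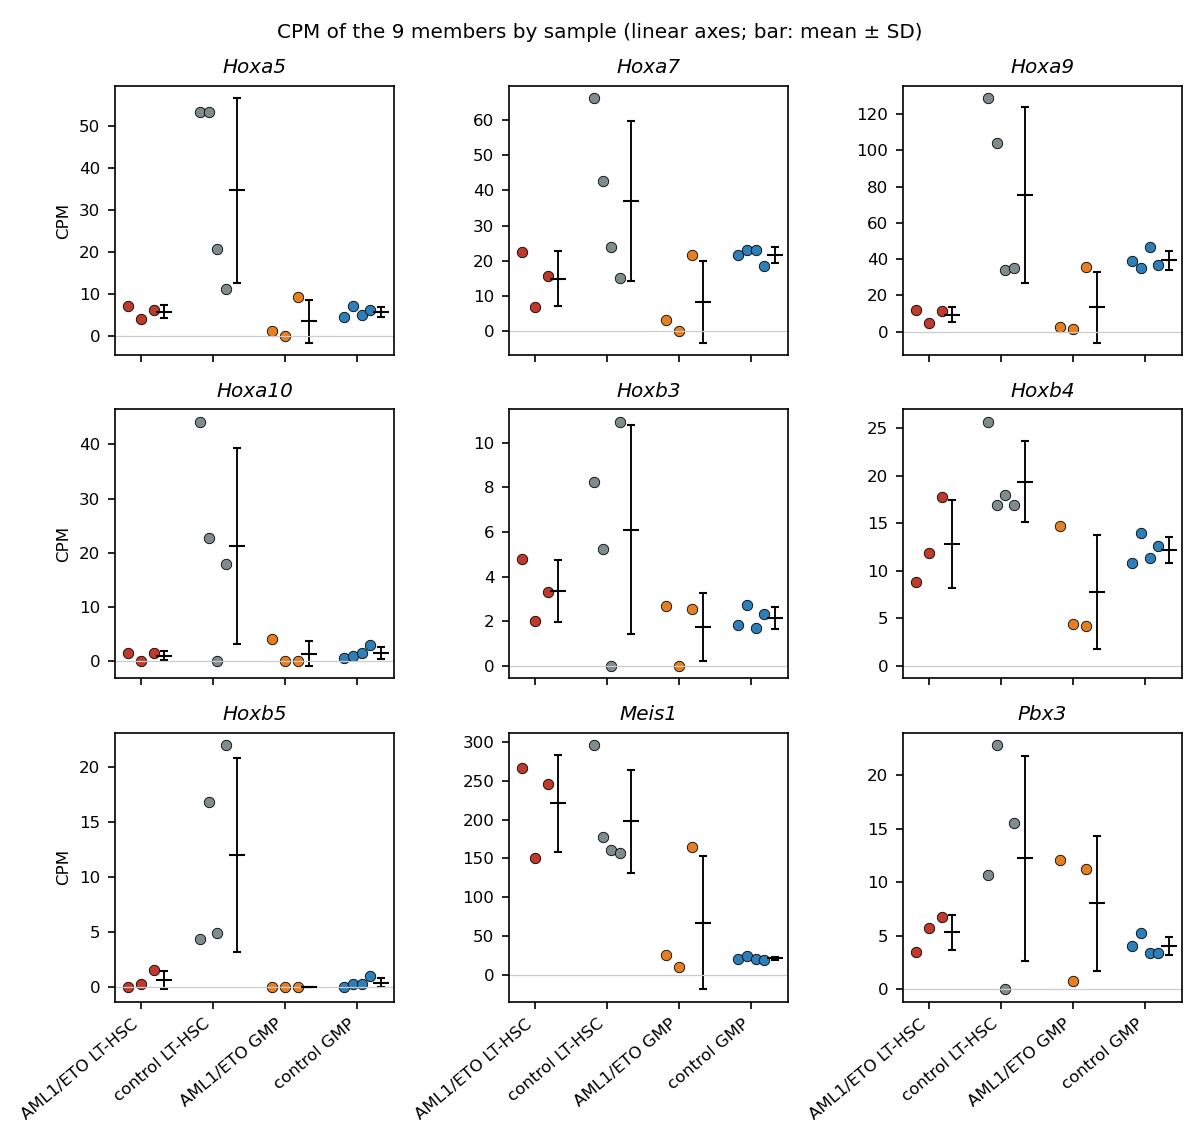
CPM of each member (vertical axes, linear, 1 scale per gene) in the 14 samples by group, with points for samples and the bar for mean ± SD (n = 3 AML1/ETO, n = 4 control). Hoxa9 and Hoxa5 were below every control LT-HSC library in the 3 AML1/ETO LT-HSC libraries, and AML1/ETO GMP replicate 3 stood above the other 2 of its group for Hoxa5, Hoxa7, Hoxa9 and Meis1.

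Within single libraries the balance of Meis1 to Hoxa9 also differed. Per kilobase of exon, Meis1 over Hoxa9 was 11.7, 16.4 and 11.4 in AML1/ETO LT-HSC, against 1.22, 0.905, 2.51 and 2.37 in control LT-HSC. In GMP the ratio was 4.66, 3.71 and 2.45 with AML1/ETO, against 0.282, 0.365, 0.232 and 0.282 in control. The AML1/ETO libraries lay above all control libraries in both cell types. These ratios are a description, chosen after the levels were seen, and were not tested.

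**Figure D2:**
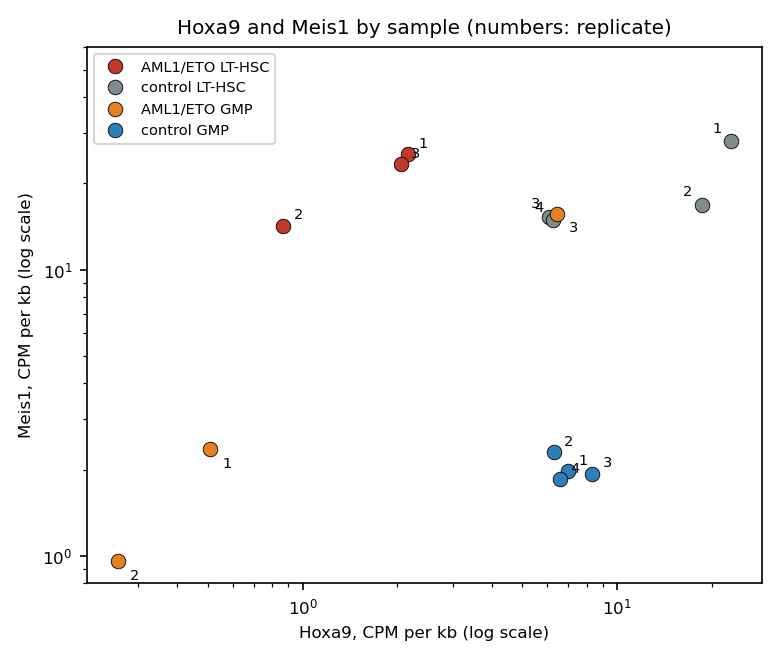
Hoxa9 (horizontal) against Meis1 (vertical), both in CPM per kilobase of exon on log scales, with 1 point a sample and the replicate number beside it. AML1/ETO LT-HSC sit at the Meis1 level of control LT-HSC (14.2 to 25.3 against 14.85 to 28.2) but at lower Hoxa9, and AML1/ETO GMP replicate 3 lies beside control LT-HSC replicates 3 and 4.

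Sums over the HOXA and HOXB clusters, a description with no test, largely repeat the members' values. In control LT-HSC the members made up 77.8 to 94.7% of the HOXA sum and 53 to 75.1% of the HOXB sum. Summed over the 11 HOXA genes in the table, AML1/ETO LT-HSC had 19.5 to 54.9 CPM and control LT-HSC 91.0 to 336.2 CPM. Over the 10 HOXB genes the sums were 13.6 to 23.9 CPM in AML1/ETO LT-HSC and 43.0 to 73.3 CPM in control LT-HSC. Neither pair of ranges overlapped. HOXC genes stayed at 0 to 0.836 CPM in AML1/ETO LT-HSC and 0 to 10.1 CPM in control LT-HSC, and none of the 9 HOXD genes had a count in any library. Of the 39 HOX genes, 23 had counts somewhere.

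Among the 32 other HOX genes, 7 passed the filter on low counts in LT-HSC, and 0 were called by edgeR (3 at an unadjusted p under 0.05, and 4 called by DESeq2). Their median log2 fold change was -4.35. Hoxb8, a gene that immortalises myeloid progenitors when overexpressed, had no count in AML1/ETO LT-HSC and 4.46 ± 4.67 CPM (SD, n = 4) in control LT-HSC, at least 68.6-fold lower against a floor of 3 counts over the group. Control replicate 3 was also at 0, so the groups overlapped, and without control replicate 4 the bound was 35.4-fold. For this and the later bounds, leaving out a library of the group at 0 raises the floor and lowers the bound, by up to 1.57 times. Hoxb8 was named after its values were seen, and its adjusted p was 0.0934 (edgeR).

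**Figure D3:**
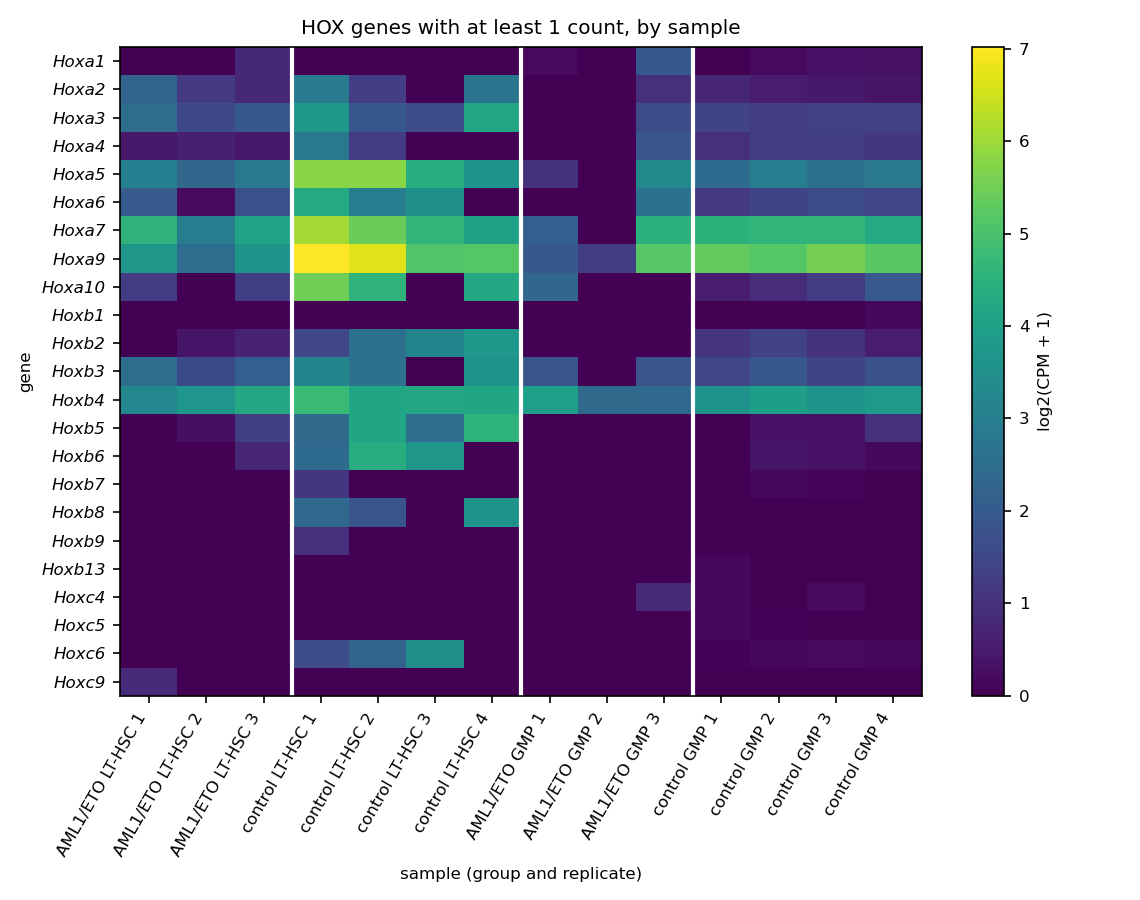
Level of the 23 HOX genes with counts, in cluster order (rows), by sample (columns, white lines between groups), as log2(CPM + 1) in colour. By group mean, the genes from Hoxa5 to Hoxa10 and from Hoxb2 to Hoxb8 are lower in AML1/ETO than in control LT-HSC. Single libraries overlap for several of them, Hoxa7, Hoxa10, Hoxb3 and Hoxb4 included. AML1/ETO GMP replicate 2 has counts for 2 HOX genes only, Hoxa9 and Hoxb4.

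Markers of other cells differed between the same groups. The sum of the 10 mast cell and basophil markers was 9542 to 12200 CPM in AML1/ETO LT-HSC, all 10 with counts, against 446.1 to 672.6 CPM in control LT-HSC, with Fcer1a and Mcpt4 at 0. The 9 GMP markers summed to 1186 to 1442 CPM in AML1/ETO LT-HSC, with Elane at 0, against 90.9 to 372.8 CPM in control LT-HSC, with Csf1r and Cebpe at 0. Most of the AML1/ETO sum was Mpo, Ctsg and Cd34, and Cd34 is also counted among the genes low in LT-HSC below. Prtn3 went the other way without overlap, at 8.677 to 18.04 CPM in AML1/ETO LT-HSC against 19.54 to 117.9 CPM in control LT-HSC. Elane had 0 to 44.76 CPM in control LT-HSC, so the sum does not describe every marker of the list. The 8 B and plasma cell markers summed to 110.6 to 642.6 CPM in AML1/ETO LT-HSC, with Ms4a1 at 0, against 13020 to 77160 CPM in control LT-HSC. The 8 erythroid markers, all with counts, summed to 29.2 to 108.3 CPM in AML1/ETO LT-HSC, against 352.9 to 1460.0 CPM in control LT-HSC. Most of the control sum was Car1, at 196.2 to 1067 CPM. The globin genes Hba-a1 and Hbb-bs overlapped, with higher means in AML1/ETO LT-HSC (19.8 and 19.1 CPM) than in control LT-HSC (6.79 and 6.29 CPM). All other erythroid markers of the list were lower without overlap. The 5 stroma and endothelium markers, with Cdh5 at 0 in both groups, summed to 274.0 to 403.4 CPM in AML1/ETO LT-HSC, against 62.9 to 155.2 CPM in control LT-HSC. Nearly all of the AML1/ETO sum was Pecam1, at 269.5 to 399.8 CPM against 55.2 to 92.2 CPM in control LT-HSC. Kdr, Col1a1 and Cxcl12 overlapped between the groups, so the sum reflects Pecam1 and not the list as a whole. The sums of T and NK cell, monocyte and dendritic cell, and mature neutrophil markers were also lower without overlap in AML1/ETO LT-HSC, and those of megakaryocyte markers overlapped. Of the T and NK markers, Lck and Trbc1 were lower without overlap and Nkg7, Ncr1 and Cd3d overlapped. Cd3e and Cd3g were higher, at up to 6.27 and 0.896 CPM against 0 in control LT-HSC. Each monocyte and dendritic cell marker overlapped singly. The neutrophil sums nearly met, at up to 42.3 CPM in AML1/ETO LT-HSC and from 45.1 CPM in control LT-HSC. The part of these marker lists in the HOX differences was not tested.

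The markers of LT-HSC themselves did not all stand alike in these groups. Cd34 and Cd48, genes that are low in LT-HSC, summed to 627.1 to 767.2 CPM in AML1/ETO LT-HSC, against 29.99 to 72.1 CPM in control LT-HSC. Cd48 alone averaged 214.0 ± 38.5 CPM (SD, n = 3) in AML1/ETO LT-HSC and 4.90 ± 6.09 CPM (n = 4) in control LT-HSC. The sum of the 9 LT-HSC markers other than Hoxb5 overlapped, at 1574 to 1898 CPM in AML1/ETO LT-HSC and 829.2 to 2022 CPM in control LT-HSC, but 4 of the 9 had groups without overlap. Mecom, a transcription factor that stem cells need, had 4.07 to 16.6 CPM in AML1/ETO LT-HSC against 41.9 to 175.8 CPM in control LT-HSC, and Ctnnal1, a marker of mouse stem cells, had 3.46 to 7.22 CPM in AML1/ETO LT-HSC against 29.8 to 61.9 CPM in control LT-HSC. Kit had 819.5 to 1020.0 CPM in AML1/ETO LT-HSC against 454.0 to 712.3 CPM in control LT-HSC, and Ly6a, the SCA-1 antigen, 240.9 to 331.7 CPM in AML1/ETO LT-HSC against 45.1 to 217.5 CPM in control LT-HSC. Those that overlapped included Procr, Hlf, Slamf1 and Fgd5. Whether the AML1/ETO and control LT-HSC libraries hold the same mix of cells was not tested.

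The genes around the members in the pathway moved both ways in LT-HSC. Of 10 other TALE partners 8 were tested, with 4 higher, 0 lower and a median log2 fold change of 0.42, where 12.3% of all genes tested were called. Pbx4, a PBX protein, had 71.7 ± 5.0 CPM (SD, n = 3) in AML1/ETO LT-HSC and 28.0 ± 6.2 CPM (n = 4) in control LT-HSC, a log2 fold change of 1.46 ± 0.24 (edgeR adjusted p = 0.00798). The others were Tgif1, a repressor of the TALE class (1.71), Pbxip1, which binds PBX proteins (0.93), and Pbx2 (0.70). All 4 calls were lost without at least 1 library, with adjusted p-values up to 0.186, that of Pbx2 without any 1 of the 7 and that of Pbx4 without AML1/ETO replicate 1 or 2 (0.0519 to 0.0564).

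Of 24 activators of HOX clusters 21 were tested, with 2 higher and 2 lower and a median of 0.17. These 4 calls are 19% of the list, near the 12.3% over all genes, and nothing is read from the list as a whole. Mllt3, an elongation factor partner of MLL that maintains human stem cells, had 22.3, 16.7 and 30.3 CPM in AML1/ETO LT-HSC, against 134.2, 145.5, 66.4 and 96.1 CPM in control LT-HSC. No values overlapped, and the log2 fold change of -2.16 ± 0.34 passed (edgeR adjusted p = 0.00731), though not without AML1/ETO replicate 2 (0.0534). Psip1, the LEDGF protein that tethers MLL to chromatin, fell by 1.08 on the log2 scale, while Aff4, a scaffold of the super elongation complex, rose by 2.36 (edgeR adjusted p = 0.00603 and 0.00132), and both calls held without any 1 library. Kdm6a, a demethylase of the Polycomb mark, rose by 0.82 (edgeR adjusted p = 0.0180), a call lost without any 1 AML1/ETO library (up to 0.105).

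All 22 Polycomb genes were tested, with 3 higher, 1 lower and a median of 0.40, so that 18.2% of the list was called, also near the share over all genes. Ezh1, a histone methyltransferase, and Pcgf5, a ring finger subunit, each rose by 1.10, and Mtf2, a recruiting subunit, rose by 0.64, while Phc1, a subunit of a Polycomb complex, fell by 0.81 (edgeR adjusted p = 0.0230 to 0.0415). All 4 calls were lost without any 1 AML1/ETO library (up to 0.153). Without any 1 library the list had 0 to 3 calls.

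Of 28 blood genes known as targets of HOXA9 or MEIS1, 26 were tested, with 10 higher, 3 lower and a median of 0.84, so that 50% of the list was called, against 12.3% of all genes. Without 1 library, 3 to 15 of them were called. The list does not say which direction a target takes, and it holds Cd34 and Pf4, which also mark progenitors and megakaryocytes. Cd34 rose by 3.55 ± 0.27, Pim1, a survival kinase, by 2.62 ± 0.29 and Flt3, a progenitor cytokine receptor, by 2.33 ± 0.36 on the log2 scale, and these 3 calls held without any 1 library (edgeR adjusted p = 0.000594, 0.00195 and 0.00682 with all). Cdk6, a cell cycle kinase, rose by 2.28 ± 0.40 (adjusted p = 0.0101, and 0.0648 without AML1/ETO replicate 2). Bcl2, an inhibitor of cell death, had 14.7, 5.84 and 21.5 CPM in AML1/ETO LT-HSC, against 75.6, 75.2, 233.9 and 120.5 CPM in control LT-HSC. Its log2 fold change was -3.07 ± 0.57 (edgeR adjusted p = 0.0126), not called without AML1/ETO replicate 1 or 2 (0.0623 to 0.0689). Pf4, a platelet chemokine, fell by 3.86 ± 0.91 (adjusted p = 0.0303), not called without AML1/ETO replicate 1 or 2 or control replicate 4 (0.0641 to 0.147).

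**Figure D4:**
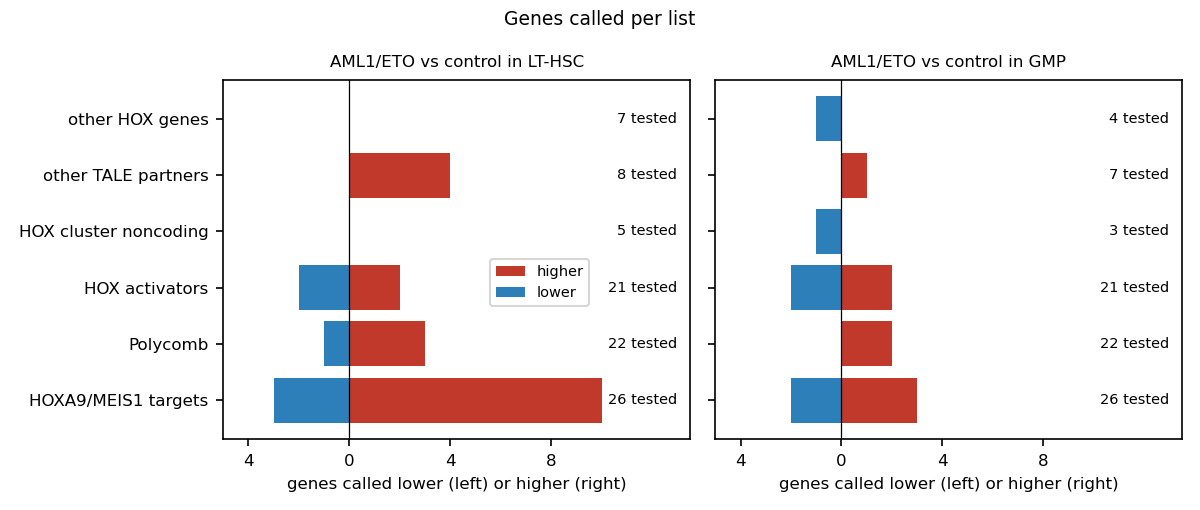
Number of genes called lower (left of 0) or higher (right of 0) by edgeR in AML1/ETO against control LT-HSC (left panel) and GMP (right panel), for each list of genes around the members, with the number tested beside each bar. In LT-HSC 10 HOXA9 or MEIS1 targets were higher and 3 lower, against 3 and 2 in GMP.

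AML1/ETO GMP were then compared with control GMP, the same question in committed progenitors. Control GMP libraries lay close together for Hoxa7, Hoxa9, Hoxb4 and Meis1, while AML1/ETO GMP were split: replicates 1 and 2 held little HOXA transcript, and the HOXA sum of replicate 3 was at the control level. Of the 8 members that passed the filter, 0 were called (0 at an unadjusted p under 0.05, and 0 by DESeq2), where 9.43% of 13981 genes were called, 5.47% higher and 3.96% lower. No tested member was lower without overlap, against 16.1% of genes. Their median log2 fold change was -0.45, against -0.03 over all genes.

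Hoxa9 had 2.83, 1.44 and 35.8 CPM in AML1/ETO GMP, against 39.1, 35.1, 46.6 and 36.7 CPM in control GMP. Replicates 1 and 2 lay far below all controls, and replicate 3 lay inside their range. The log2 fold change was -1.53 ± 0.94 (edgeR adjusted p = 0.378), and without AML1/ETO GMP replicate 3 it was -4.19 and passed (adjusted p = 0.00257). Hoxa7 followed the same pattern, with 3.29, 0 and 21.5 CPM in AML1/ETO GMP, against 21.7, 23.2, 23.2 and 18.5 CPM in control GMP, a log2 fold change of -1.37 ± 1.17 (edgeR adjusted p = 0.539), and -3.705 without AML1/ETO GMP replicate 3 (adjusted p = 0.0706). Hoxa5 had 1.05, 0 and 9.25 CPM in AML1/ETO GMP, against 4.44, 7.0, 5.0 and 6.05 CPM in control GMP, so replicate 3 was above all controls and the other 2 below (log2 fold change -0.69 ± 1.27, edgeR adjusted p = 0.803, and -3.39 without replicate 3, adjusted p = 0.113). Hoxa10 was low everywhere, with 3.95, 0 and 0 CPM in AML1/ETO GMP and 0.482 to 2.91 CPM in control GMP (-0.08 ± 1.68, edgeR adjusted p = 0.986). Without AML1/ETO replicate 1, which held all Hoxa10 counts of AML1/ETO GMP, it was called lower (adjusted p = 0.0321).

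Hoxb4 split differently, with 14.7, 4.38 and 4.23 CPM in AML1/ETO GMP, against 10.9, 13.9, 11.3 and 12.6 CPM in control GMP. Here replicate 1 was the high library and replicate 3 among the low ones. The log2 fold change was -0.63 ± 0.48 (edgeR adjusted p = 0.490), and -1.49 without AML1/ETO replicate 1 (adjusted p = 0.0136). Hoxb3 had 2.70, 0 and 2.57 CPM in AML1/ETO GMP, against 1.82, 2.75, 1.69 and 2.33 CPM in control GMP (-0.27 ± 1.18, edgeR adjusted p = 0.922). Hoxb5 had no count in the 3 AML1/ETO GMP libraries, against 0, 0.269, 0.260 and 0.989 CPM in control GMP, at least 5.92-fold lower against a floor of 3 counts over the group, and was too low to test. Control replicate 1 was at 0 too, and without control replicate 4 the bound was 2.75-fold.

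Meis1 had 24.9, 10.1 and 165.4 CPM in AML1/ETO GMP, against 20.8, 24.2, 20.4 and 19.5 CPM in control GMP. Replicate 3 was at a level seen in LT-HSC, and the other 2 lay near or below the controls. The log2 fold change was 1.68 ± 0.78 (edgeR adjusted p = 0.239), -0.27 without AML1/ETO replicate 3 (adjusted p = 0.655) and 2.18 without replicate 2 (adjusted p = 0.0406). Pbx3 had 12.1, 0.785 and 11.2 CPM in AML1/ETO GMP, against 4.07, 5.22, 3.38 and 3.43 CPM in control GMP. Replicates 1 and 3 were above all controls and replicate 2 below them, with a log2 fold change of 1.01 ± 0.77 (edgeR adjusted p = 0.486) that was 1.54 without replicate 2 (adjusted p = 0.0194).

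Markers of other cell types also varied among the AML1/ETO GMP libraries, and replicate 3 was highest for those of megakaryocytes. The 5 megakaryocyte markers, with Gp1bb at 0 in both groups, summed to 213.1, 148.0 and 1512 CPM in AML1/ETO GMP, against 84.6 to 107.0 CPM in control GMP. The 9 LT-HSC markers other than Hoxb5 summed to 319.1, 236.1 and 459.0 CPM in AML1/ETO GMP, against 330.7 to 380.2 CPM in control GMP. The 8 erythroid markers summed to 4318, 53.1 and 1297 CPM in AML1/ETO GMP against 8.35 to 15.2 CPM in control GMP, and the 6 mature neutrophil markers to 3061, 354.9 and 572.8 CPM in AML1/ETO GMP against 45.9 to 60.5 CPM in control GMP. All of these erythroid and neutrophil markers had counts in both groups. The 10 mast cell and basophil markers, all with counts in AML1/ETO GMP, summed to 1737, 2972 and 2640 CPM there, against 554.5 to 688.2 CPM in control GMP, with Mcpt4 and Tpsb2 at 0. The 5 stroma and endothelium markers summed to 229.0 to 265.3 CPM in AML1/ETO GMP, against 113.8 to 139.3 CPM in control GMP. Most of this was again Pecam1, at 194.4 to 263.8 CPM in AML1/ETO GMP against 113.0 to 138.9 CPM in control GMP. Sums of B and plasma cell, T and NK cell, and monocyte and dendritic cell markers overlapped. Their part in the spread of HOX levels was not tested.

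The summed HOXA level was 11.2, 1.44 and 80.2 CPM in AML1/ETO GMP, against 69.2 to 81.9 CPM in control GMP. HOXB sums were 17.4, 4.38 and 6.80 CPM in AML1/ETO GMP, against 13.9 to 19.01 CPM in control GMP. Of the 4 other HOX genes tested, Hoxb2 was called lower: it had no count in AML1/ETO GMP and 1.06 ± 0.47 CPM (SD, n = 4) in control GMP, at least 16.6-fold lower against the floor (edgeR adjusted p = 0.0290, and 0.0892 without control replicate 4, with a value from 4 of the 7 fits without 1 library). Hoxb3os, the antisense neighbour of Hoxb3 and the single call among 3 noncoding genes tested, likewise had no count in AML1/ETO GMP, against 0.766 ± 0.315 CPM (n = 4) in control GMP, at least 12-fold lower (edgeR adjusted p = 0.0335). The noncoding list had no call without any 1 control GMP library, with no filter on low counts, in a fit of all 14 samples or with the replicate block. Hoxb3os was named because it was the only call, after its values were seen.

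Around the members in GMP, 1 of 7 TALE partners tested was higher, Pbx2, by 0.52 ± 0.09 on the log2 scale (edgeR adjusted p = 0.0200, lost without any 1 control library, up to 0.0876). Over all genes tested 9.43% were called, and in the lists 19% of the activators, 9.09% of the Polycomb genes and 19.2% of the targets were. Of 21 activators tested 2 were higher and 2 lower. Kdm6b, a demethylase of the Polycomb mark, rose by 1.80 ± 0.23 and Aff4 by 1.12 ± 0.14 (edgeR adjusted p = 0.0070 each), and both held without any 1 library. Npm1, a nucleolar protein mutated in human leukaemia with high HOX expression, fell by 0.47, and Mllt1, a reader in the elongation complex, fell by 0.38, calls lost without any 1 control library and, for Mllt1, without AML1/ETO replicate 3 (up to 0.156). Of 22 Polycomb genes 2 were higher, Phf1 by 1.31 and Asxl1 by 0.41, both lost without any 1 control library and Asxl1 also without AML1/ETO replicate 1 (up to 0.151). Of 26 targets tested 3 were higher and 2 lower, with 1 to 12 calls without 1 library. Pim1 rose by 1.25 ± 0.16 (edgeR adjusted p = 0.00701) and held without any 1 library. Id2, an inhibitor of helix-loop-helix factors, rose by 2.66 and Camk2d, a calcium-dependent kinase, by 2.12, while Myc, a transcription factor that promotes growth, fell by 1.11 and Kit, the stem cell factor receptor, by 0.50. Id2, Myc and Kit lost the call without any 1 control library, Kit also without AML1/ETO replicate 3, and Camk2d without control replicate 1 or 3 (edgeR adjusted p up to 0.140).

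The AML1/ETO effect in GMP was then set against its effect in LT-HSC in 1 fit of all 14 samples. Of 9 members 0 were called (0 at an unadjusted p under 0.05, and 0 by DESeq2), against 6.34% of 16116 genes. The difference of log2 fold changes was 1.496 ± 0.885 for Meis1 (edgeR adjusted p = 0.382) and 1.44 ± 1.15 for Hoxa9 (edgeR adjusted p = 0.561). Without AML1/ETO GMP replicate 3 these were -0.44 and -1.21, and those of Hoxa5 and Hoxa7 were -0.82 and -2.41 (edgeR adjusted p = 0.329 to 0.811 for the 4). Hoxa10 (4.37 ± 2.59), Pbx3 (2.19 ± 1.70) and Hoxa5 (1.88 ± 1.42) had the largest differences of the others, and Hoxa7, Hoxb3, Hoxb4 and Hoxb5 lay between -1.30 and 0.57. The errors are wide, so a sizeable difference could pass unseen here.

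GMP were also compared with LT-HSC within each genotype, which shows how the members' levels differ with commitment. In AML1/ETO mice 0 of 9 members were called between GMP and LT-HSC (2 at an unadjusted p under 0.05, and Hoxb5 and Meis1 by DESeq2), where 21.7% of 16116 genes were. No member had groups without overlap, against 41.8% of genes. Meis1 had 24.9, 10.1 and 165.4 CPM in AML1/ETO GMP, against 149.96 to 266.3 CPM in AML1/ETO LT-HSC. Only GMP replicate 3 reached the LT-HSC range. The log2 fold change was -1.73 ± 0.68 (edgeR adjusted p = 0.0860), and -3.65 without that library (adjusted p = 0.000105). Without it Hoxa5 (-3.42) and Hoxa9 (-2.13) also passed (adjusted p = 0.0432 and 0.0317), and Hoxa7 (-3.165) did not (0.0649). Hoxb5, with no count in AML1/ETO GMP, was at least 9.15-fold lower than in AML1/ETO LT-HSC (edgeR adjusted p = 0.0601, and 0.0428 without AML1/ETO LT-HSC replicate 1). That bound rests on AML1/ETO LT-HSC replicate 3 and was 1.8-fold without it, and AML1/ETO LT-HSC replicate 1 was at 0 as well. Hoxb4 passed without AML1/ETO GMP replicate 1 (-1.56, adjusted p = 0.0334). With all libraries, the 7 members other than Meis1 and Hoxb5 had log2 fold changes between -0.93 (Hoxb3) and 0.59 (Pbx3), with edgeR adjusted p-values of 0.362 to 0.915.

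In control mice, Meis1 and Hoxb5 were lower in GMP, and Hoxa7 and Hoxa9 did not pass the test. Of 9 members 2 were called lower and 0 higher, where 24.5% of 16116 genes were called, 10.6% lower. Meis1 had 19.5 to 24.2 CPM in control GMP and 156.4 to 296.7 CPM in control LT-HSC. No library overlapped, and the log2 fold change of -3.22 ± 0.63 (edgeR adjusted p = 0.00214) held without any 1 control library (up to 0.00994).

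Hoxb5 had 0 to 0.989 CPM in control GMP and 4.38 to 22.0 CPM in control LT-HSC, with a log2 fold change of -4.96 ± 1.57 (edgeR adjusted p = 0.0376). The call was lost without control GMP replicate 1 (0.0755), 2 (0.0978) or 3 (0.102) and without control LT-HSC replicate 2 (0.0591) or 4 (0.0755). Hoxa5 had 4.44 to 7.0 CPM in control GMP and 11.1 to 53.3 CPM in control LT-HSC, without overlap, and its log2 fold change of -2.62 ± 0.97 just missed (edgeR adjusted p = 0.0627), passing without control LT-HSC replicate 3 (0.0481). Hoxb4 was also lower in GMP without overlap (-0.67 ± 0.44, edgeR adjusted p = 0.298), so that 4 of 9 members were, against 11.4% of all genes tested. Hoxa9 (-0.94 ± 0.75), Hoxa7 (-0.77 ± 0.91), Hoxb3 (-1.51 ± 1.36), Hoxa10 (-3.91 ± 1.80) and Pbx3 (-1.60 ± 1.12) did not pass (edgeR adjusted p = 0.129 to 0.599). Without control LT-HSC replicate 3, Hoxa10 (-4.34) and Pbx3 (-2.03) did (adjusted p = 0.0400 and 0.0419), and Hoxb3 (-1.93) did not (0.178).

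**Figure D5:**
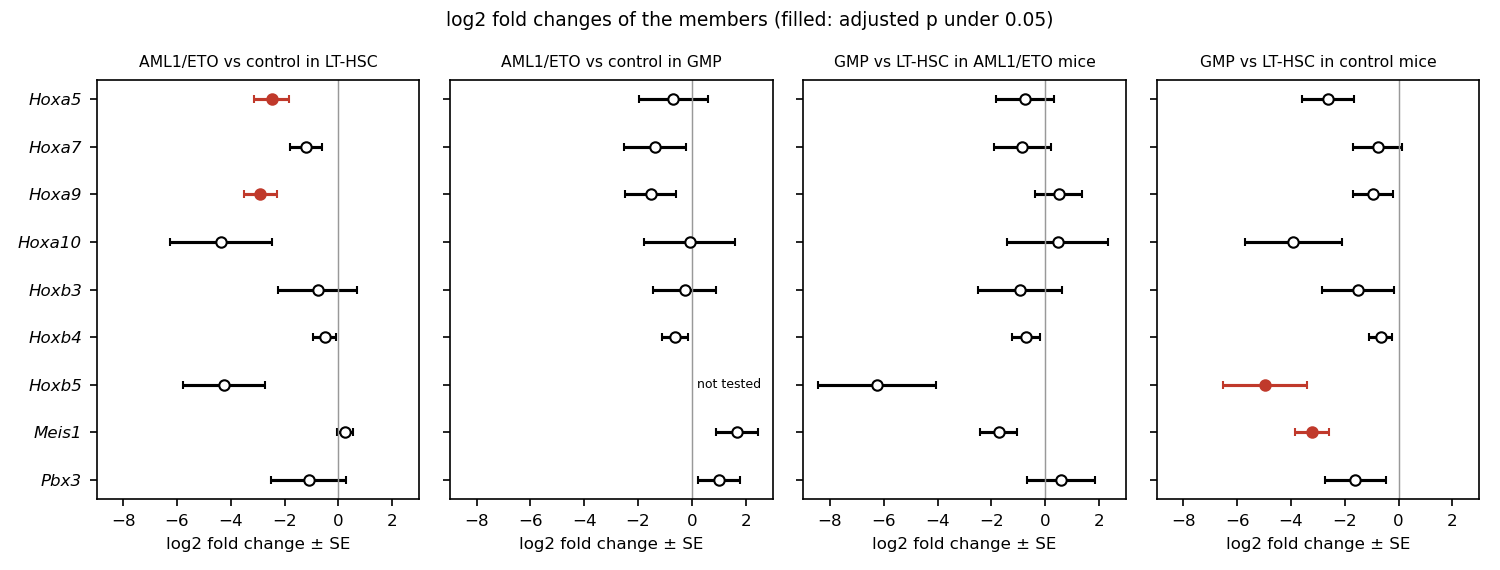
log2 fold changes ± SE of the members (rows) from edgeR in 4 comparisons (panels), with filled red points where the adjusted p was under 0.05. Filled are Hoxa9 and Hoxa5 in AML1/ETO against control LT-HSC, and Meis1 and Hoxb5 in GMP against LT-HSC of control mice, and Hoxb5 was too low to test in AML1/ETO against control GMP.

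Of 9 other TALE partners tested, 2 were lower in AML1/ETO GMP than in AML1/ETO LT-HSC, Pbx4 (-1.92) and Pbxip1 (-0.94). That is 22.2% of the list, near the 21.7% called over all genes. In control mice 3 of the 9 were lower in GMP (33.3%, against 24.5% of all genes called). They included Pbxip1 (-0.65) and Meis3, which had no count in control GMP and was at least 41-fold lower (edgeR adjusted p = 0.0479, lost without any 1 of 7 of the 8 libraries, up to 0.101). Of 8 other HOX genes tested, 1 was called in control mice (12.5%), Hoxb8. Hoxb8 had no count in control GMP and was at least 104-fold lower than in control LT-HSC (edgeR adjusted p = 0.0344), 53.6-fold without control LT-HSC replicate 4, and lost the call without any 1 control GMP library (up to 0.0734). In AML1/ETO mice Hoxb2 (edgeR adjusted p = 0.0419) and Hoxb3os (0.0345) were lower in GMP, with no count there. They were the only calls among 8 other HOX genes (12.5%) and 6 noncoding genes (16.7%) tested, against 21.7% of all genes. Both calls were lost without 5 of the 6 libraries in turn (up to 0.120), Hoxb2 keeping it without AML1/ETO LT-HSC replicate 1 and Hoxb3os without replicate 3.

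Mllt3 had 11.9 ± 0.5 CPM in control GMP and 110.5 ± 36.2 CPM in control LT-HSC (SD, n = 4 each), a log2 fold change of -3.22 ± 0.46 (edgeR adjusted p = 0.000237). Between GMP and LT-HSC, 21.7% of all genes were called in AML1/ETO mice and 24.5% in control mice. Of the 21 activators tested, 4 were higher and 4 lower in GMP of AML1/ETO mice (38.1%), and 6 higher and 4 lower in GMP of control mice (47.6%). Of the 22 Polycomb genes, 2 were higher and 7 lower in GMP of AML1/ETO mice (40.9%), and 2 higher and 4 lower in GMP of control mice (27.3%, near the share over all genes). Cbx7, a reader of the Polycomb mark, was lower in GMP by a log2 fold change of -2.49 ± 0.37 in AML1/ETO mice and -3.15 ± 0.33 in control mice (edgeR adjusted p = 0.000344 and 2.29e-05). Of 27 targets tested, 1 was higher and 11 lower in GMP of AML1/ETO mice (44.4%), and 5 higher and 13 lower in GMP of control mice (66.7%). Hlf, a stem cell transcription factor, was at -4.52 ± 0.54 in AML1/ETO mice and -4.47 ± 0.47 in control mice (edgeR adjusted p = 6.27e-05 and 2.01e-05).

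Set in order of mean level, control LT-HSC were highest for all 8 members other than Meis1. AML1/ETO GMP were lowest for Hoxa5, Hoxa7, Hoxb3, Hoxb4 and Hoxb5, AML1/ETO LT-HSC for Hoxa9 and Hoxa10, and control GMP for Meis1 and Pbx3. Without AML1/ETO GMP replicate 3, AML1/ETO GMP were lowest for Hoxa9 and Meis1 too, at means of 2.13 and 17.5 CPM. Neighbours in these orders overlapped in range, apart from AML1/ETO LT-HSC and control LT-HSC for Hoxa5 and for Hoxb5. By mean per kilobase of exon, Meis1 led in AML1/ETO LT-HSC (20.98 ± 5.91 CPM per kb, SD, n = 3), control LT-HSC (18.8 ± 6.3, n = 4) and AML1/ETO GMP (6.34 ± 8.14, n = 3), and stood below Hoxa7, Hoxa9, Hoxb4 and Hoxa5 in control GMP (2.01 ± 0.195, n = 4). In control LT-HSC the mean of Hoxa5 was close, at 18.4 ± 11.7 CPM per kb. Hoxa5 led there in replicates 1 and 2, at 28.35 and 28.41 CPM per kb. The lead in AML1/ETO GMP rests on replicate 3, where Meis1 stood at 15.7 CPM per kb. In replicates 1 and 2 Hoxb4 led, at 5.74 and 1.71 CPM per kb, and Meis1 came next at 2.36 and 0.957. Hoxa7 led in control GMP by mean (7.53 ± 0.769 CPM per kb), but Hoxa9 led in replicates 3 and 4, at 8.34 and 6.57 CPM per kb. Hoxb5 was last by mean in AML1/ETO LT-HSC (0.211 ± 0.296 CPM per kb) and in both GMP groups, and Hoxb3 was last by mean in control LT-HSC (1.44 ± 1.10 CPM per kb). Last places varied by library. Hoxa10 was last in AML1/ETO LT-HSC replicates 2 and 3, and Hoxb5 tied at 0 with other members in AML1/ETO GMP replicates 2 and 3. In control LT-HSC, Hoxb5 was last in replicate 1 and Pbx3 in replicate 4.

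Across the 14 samples, the log2 CPM of 13619 other genes was compared with that of Hoxa9 and Meis1, as a description in which the 4 groups set much of the pattern. Most like Hoxa9 by Pearson's r were B4galnt4 (0.949), Endou (0.937), Tspan32 (0.903), Fut10 (0.889) and Tmem41a (0.879). Tspan32, a tetraspanin of blood cells, had 75.8 ± 15.5 CPM in AML1/ETO LT-HSC and 159.5 ± 23.9 CPM in control LT-HSC, and 68.0 ± 13.2 CPM in AML1/ETO GMP and 116.7 ± 6.6 CPM in control GMP (SD, n = 3 and n = 4). Most like Meis1 were Angpt1 (0.976), a ligand of the TIE2 receptor made by stem cells, Sgms1 (0.966), Cysltr2 (0.965), Slc38a9 (0.964) and Agpat3 (0.963). Angpt1 had 375.8 ± 81.1 CPM in AML1/ETO LT-HSC and 339.3 ± 105.4 CPM in control LT-HSC, and 74.2 ± 77.3 CPM in AML1/ETO GMP and 36.2 ± 8.8 CPM in control GMP.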

How the data were processed

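The authors deposited 1 table of raw counts, whole numbers per gene symbol with no normalisation, for 14 bulk samples of sorted mouse bone marrow cells (54532 lines). Per the submitters' processing notes, HISAT2 2.0.5, featureCounts 1.5.0-p3 and mm10 were used. Per the labels' protocols, RNA was taken with a micro-scale column kit, and libraries with a low-input SMART-Seq and a stranded SMARTer kit. How strand was counted and which annotation release served is not given in the sources used here, and antisense neighbours can share reads. The symbols hold 105 repeats and 27 dates (0.14% of counts), which stayed in the tests unnamed.

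Genes were filtered with filterByExpr, scaled by TMM and fitted in R 4.3.3 with edgeR 4.0.16 (glmQLFit, glmQLFTest, two-sided). P-values were adjusted by Benjamini-Hochberg across each whole fit, and 0.05 was the limit for a call. Each AML1/ETO comparison used the 7 samples of its cell type (5 residual degrees of freedom). The others, and all CPM, came from a fit of 14 samples (10 residual degrees of freedom). A group without counts was set against a floor of 3 counts over the group. Floors cover counting error only, and the labels name no molecular identifiers. The code was tested on simulated data. Coordinates and exon lengths came from GENCODE M21, promoters from RefSeq. Pairs of replicates differed well beyond sampling noise (chi-square per gene 9.2 to 216). Alternatives were DESeq2 1.42.0, its size factors, upper-quartile scaling, no filter, other sample sets, a replicate block and leaving out each library.

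Members and lists were chosen with earlier results of these data known. All members were named, and per list up to 6 called genes, those of largest fold change among genes averaging 10 or more counts, and 5 genes most like Hoxa9 and Meis1 among genes averaging 20 or more. Lists were other HOX genes, TALE partners, noncoding genes of the clusters, activators, Polycomb repressors, and HOXA9 or MEIS1 targets. Genes counted in the TALE and LT-HSC marker lists are in part not reported here.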

Additional observations from a re-analysis of the deposited data

Results flagged for a closer look

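Control LT-HSC replicate 1 stood far from the other 3 for 2 members, with a gap of 0.875 of the group's range for Hoxb4 and 0.85 for Meis1, above the critical value of Dixon's test for 4 samples. Chance gives such a gap in about 1 group in 20 for each gene. All 9 members were scanned in both control groups, so such a gap can arise by chance. Control LT-HSC replicate 1 was the high library for both genes.

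For 10 named genes around the members, the log2 fold change of AML1/ETO against control differed between GMP and LT-HSC in the fit of 14 samples (edgeR adjusted p under 0.05 over all genes). They are the 3 activators and 1 Polycomb gene called, and 6 of the 8 targets called, since at most 6 genes were named per list. Called were 14.3% of the 21 activators tested, 4.55% of the 22 Polycomb genes and 29.6% of the 27 targets. Over all genes the share was 6.34%, so that of the Polycomb genes lay below it. The difference, GMP minus LT-HSC, was 2.86 for Mllt3, 0.932 for Psip1 and 7.27 for Pf4. It was -1.16 for Aff4, -1.36 for Pcgf5, -3.76 for Cd34, -2.3 for Cdk6, -1.29 for Pim1, -1.22 for Kit and -1.04 for Myc. Cd34, Cdk6, Kit and Psip1 were called without each 1 of the 14 libraries. The other 6 lost the call without at least 1 library (adjusted p up to 0.106), Myc and Pim1 without 8 of the 14.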

How the results depend on the processing

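In LT-HSC the 2 member calls became 4 with DESeq2 (Hoxa5, Hoxa9, Hoxa10 and Hoxb5), 1 in a fit of all 14 samples (Hoxa9), and 0 to 3 without 1 library. In GMP 0 calls became 0 to 2 without 1 library. For GMP against LT-HSC, 0 calls in AML1/ETO mice became 2 with DESeq2 and 0 to 3 without 1 library, and 2 in control mice became 4 with DESeq2 and 1 to 5 without 1 library. The test of the difference gave 0 in every alternative run. Other scalings and no filter left the member counts as they were. Over all genes, the 1791 calls in LT-HSC became 3249 with DESeq2, 3166 in the fit of all samples and 334 to 2376 without 1 library. The 1319 in GMP became 816 with no filter, 2950 with DESeq2, 458 in the fit of all samples and 131 to 3514 without 1 library. The 1021 of the difference became 2079 with DESeq2 and 471 to 1477 without 1 library, and the 3505 in AML1/ETO mice became 2092 to 3298 without 1 library.

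Same-numbered samples share only a number by the labels. The correlations of their deviations were -0.0765 to -0.0484 in LT-HSC, 0.0141 to 0.0359 in GMP and -0.0388 to 0.0182 between cell types in control mice. Between cell types in AML1/ETO mice they were 0.091, 0.161 and 0.109, each sample correlating best with its own number, which is a hint from the data and not the design. With the replicate block, member calls were 0 in LT-HSC (adjusted p = 0.0571 for Hoxa9 and 0.0699 for Hoxa5), 0 in GMP, 3 in control mice (with Hoxa5, adjusted p = 0.0246) and 0 in AML1/ETO mice. All-gene calls were 525 in LT-HSC, 112 in GMP, 508 for the difference, 2318 in control mice and 2628 in AML1/ETO mice.

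Estimates that changed sign were all uncalled in the reported fits with all libraries. With the replicate block, Hoxb3 in LT-HSC was 0.55, the difference was -0.14 for Hoxa5, -0.054 for Hoxa9 and -1.14 for Hoxb3, and GMP against LT-HSC in AML1/ETO mice was -0.86 for Hoxa9 and -1.53 for Hoxa10. The difference for Hoxb4 was 0.0053 with DESeq2 size factors and 0.0059 with DESeq2. Without 1 library, the GMP estimate ran from -7.57 to 0.56 for Hoxa10, -0.72 to 0.30 for Hoxb3 and -0.27 to 2.18 for Meis1. The difference ran from -2.41 to 0.50 for Hoxa7, -0.90 to 0.26 for Hoxb4, -1.89 to 1.02 for Hoxb5, -3.05 to 5.01 for Hoxa10, -0.82 to 2.46 for Hoxa5, -1.21 to 1.97 for Hoxa9 and -0.44 to 2.01 for Meis1. GMP against LT-HSC in AML1/ETO mice ran from -6.94 to 1.06 for Hoxa10 and -2.13 to 1.04 for Hoxa9. The cause was not tested. In LT-HSC, edgeR estimated a common coefficient of variation of 0.785 between libraries of a group, and the AML1/ETO LT-HSC level of Hoxb5 rests on 28 counts in all.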
